A study of Mus musculus with 6 samples.

Results

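The transcripts of the unperturbed mouse spinal cord were described from the 3 wild-type samples of a study of 6 samples. The wild-type samples came from 8-week-old male C57BL/6 mice, and the other 3, which carried a Dhtkd1 null genotype, were not used here. The 3 samples were chosen by their genotype label alone. Amplified total RNA, marked with the single dye Cy3, was put on Agilent arrays that cover the mouse genome, and each sample had its own array. Each sample has its own numbered title, and the replicate numbers used here are not those of the titles. The labels state neither whether each sample is a separate animal nor which segments of the cord were taken. The spread between the 3 may therefore be technical in part. No groups were compared and no test was run, so that all results below are levels, counts and spreads.

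The spinal cord carries motor commands and sensory signals between the brain and the body. Its outer white matter consists largely of axons wrapped in myelin, which oligodendrocytes make, while the inner grey matter holds neuron bodies, among them the cholinergic motor neurons and many glycine- and GABA-releasing interneurons. Astrocytes, microglia and blood vessels run through both, ependymal cells line the central canal, and the meninges, spinal roots, vertebrae, fat and muscle surround the cord. The level of the body axis from which cord tissue comes is recorded in its Hox genes, of which the higher-numbered paralogous groups are used further toward the tail.

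Signals are log2 values from the authors' deposited table, in which the 3 arrays have the same distribution. A gene was represented by its probe of highest mean, and it was called detected where at least 1 of its probes was marked well above background by the scanner software on all 3 arrays. The processed signal at the 75th percentile was 950.4 to 1012 intensity units, 78.4% to 82.0% of spots were well above background, and no spot was saturated. Of 27342 gene names, 20394 (74.6%) were detected, 2057 were above background on 1 or 2 arrays, and 4891 (17.9%) on none. A probe's brightness also depends on its sequence, so the percentile of a gene among all genes (0 lowest, 100 highest) places its signal and does not rank transcripts by abundance. Since the tissue is a mixture, fewer cells of a type and less RNA per cell cannot be told apart.

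The 4 marker genes given for the cord were all detected, and 3 of them were very bright. Since 74.6% of all gene names were detected, their detection alone does not check the tissue label. Mbp, the basic protein of central myelin, gave log2 signals of 17.55, 17.65 and 17.65 in replicates 1, 2 and 3. Nefl, the light subunit of the neurofilaments that fill axons, gave 17.10, 17.32 and 17.08. Mbp was among the 25 highest signals and Nefl was at percentile 99.9, with SDs of 0.06 and 0.13 over the 3 samples. These values are those of the brightest probes. Other Mbp probes were at 15.28, 15.94 and 15.20 (SD 0.41) and at a mean of 11.72 (SD 0.06). The second Nefl probe had a mean of 15.54 (SD 0.11). With the mean over detected probes, Mbp was at percentile 99.0 and Nefl at 99.8. Gfap, the intermediate filament of astrocytes, gave 14.19, 15.28 and 15.44, at percentile 98.5, with replicate 1 apart from the other two. Its other 2 probes were also lowest in replicate 1, at 10.93 against 12.10 and 12.32, and at 10.08 against 11.42 and 10.46. Chat, the enzyme that makes acetylcholine, gave 5.39, 6.86 and 5.82, at percentile 40.3. It was thus above background in each sample but dim, and highest in replicate 2 at both of its probes. The probes behind these signals are 60 bases long. The first 30 bases of 3 of them are shown, with positions on mm9 as the array files give them.
Nefl (chr14:68705638-68705698, plus strand): gactttcaatgtgtgctatgaatttcctcc
Gfap (chr11:102751813-102751872, minus strand): ggttatattaacagagctagcctatgctaa
Chat (chr14:33262194-33262253, minus strand): gcagcctctctgtatgaagcagtactacag

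The brightest signals belonged to ribosomal, mitochondrial, glycolytic and myelin genes. Shares of signal were taken from the processed signal summed over the representative probe of each gene name, not over all probes. On each array the 25 brightest genes held 7.57% ± 0.17 (SD, n = 3) of it. The brightest 1% held 32.1% ± 0.22, and the brightest 10% held 77.3% ± 0.33. The brightest probe was that of Rn18s, the RNA of the small ribosomal subunit, at 19.22 on every array. Fth1, the heavy chain of the iron store ferritin, was at 18.48 on every array. Sparcl1, a secreted matrix protein, was at 18.22, 18.29 and 18.25. The identical values at the top reflect the deposited table, in which equal ranks have equal values. In the processed signal, scaled to the 75th percentile of each array, the SD over the 3 arrays was 0.07 for Rn18s and 0.02 for Fth1.

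Among the 25 brightest gene names were also the glycolytic enzymes Aldoa (mean 18.17) and Aldoc (17.53) and the respiratory chain subunits Cox6a1 (18.05), Cox4i1 (17.32) and the mitochondrially encoded COX2 (17.68) and CYTB (17.40). The ribosomal proteins Rplp1, Rps23, Rps29, Fau, Rps12 and Rps18 lay between 17.21 and 17.84. Of genes tied to neural cells, the group held the calcium-binding S100b (17.73), Mbp (17.61), the axonal motor Kif5a (17.44) and Ptgds (17.27), a prostaglandin synthase of the meninges and oligodendrocytes. Gabarapl1, Plekhb1, Chchd10 and Lrrc58 were also in it, with means of 17.21 to 17.32. Replicates of these genes differed little, with the exception of Ptgds, at 16.84, 16.94 and 18.04, and S100b, at 17.42, 17.92 and 17.84.

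The name of the second brightest probe, Ptprz1 at 18.70 on every array, is in doubt. The array files place it on chromosome 14, whereas the other 3 probes of Ptprz1, a receptor phosphatase of glia, lie on chromosome 6 and had means of 13.11, 12.25 and 5.69. The first 30 bases of the brightest and the second brightest probe of this name are shown so that the pair can be compared. The COX2 probe is likewise placed on a nuclear chromosome, chromosome 1, so that a near-identical copy of the mitochondrial gene cannot be told apart from it.
Ptprz1, brightest (chr14:105115106-105115165, plus strand): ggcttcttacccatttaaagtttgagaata
Ptprz1, second brightest (chr6:23002046-23002106, plus strand): tctggacagtaatggtgcagctttgcctga

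Genes of basic metabolism filled the top of the range. All 70 cytosolic ribosomal protein genes were detected, 66 of them within the brightest 10% of genes, and the median percentile was 99.3. Of 49 nuclear genes of oxidative phosphorylation, 46 were within the brightest 10% (median percentile 99.0), and of 17 glycolytic genes, 13 were (median 98.8). Among the glycolytic genes Gapdh was at 16.46, 16.54 and 16.61, while Hk2, the hexokinase of muscle and fat, was at 7.66, 8.34 and 8.32. Of 21 genes of cholesterol synthesis and its control, on which myelin membrane depends, all were detected and 10 were within the brightest 10%. Hmgcs1, the synthase at the head of that pathway, gave 15.11, 15.46 and 15.48. Of 15 cytoskeletal genes, 11 were within the brightest 10%, led by the tubulin Tuba1a at 16.47, 16.83 and 16.71.

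**Figure D1:**
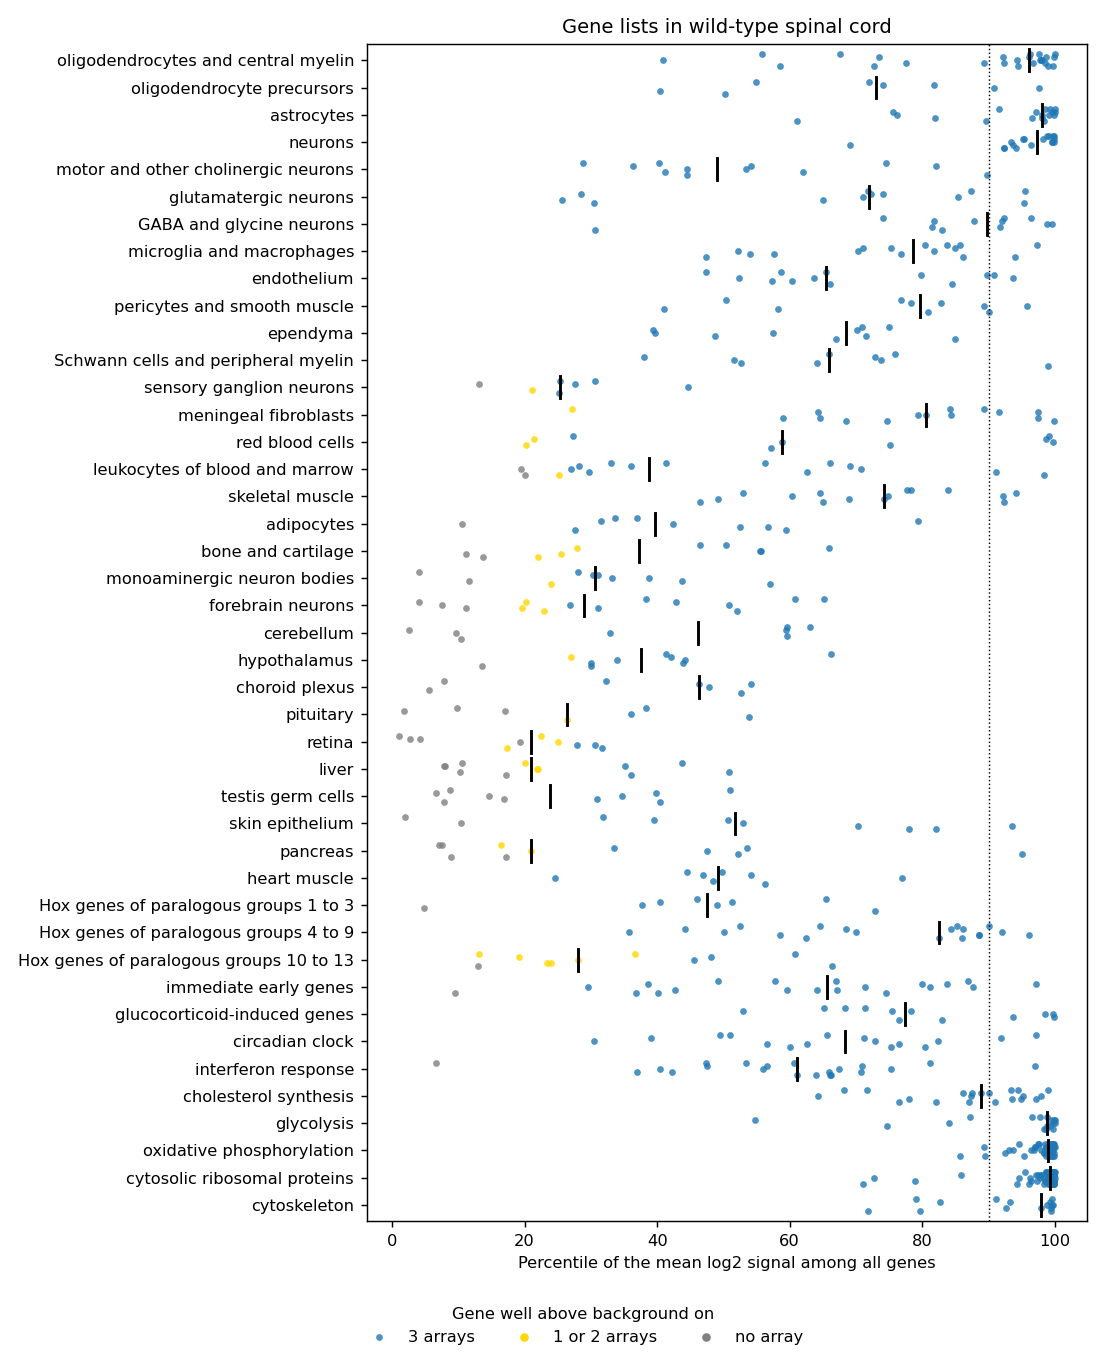
Percentile of the mean log2 signal of each gene among all genes (horizontal axis) for 43 gene lists (vertical axis); each point is a gene, coloured by how many of the 3 wild-type arrays had it well above background, bars are list medians, and the dotted line marks the start of the brightest 10%. The medians of oligodendrocyte, astrocyte and neuron genes lie at 96.2, 98.1 and 97.3, and those of retina, liver and pancreas genes at 20.9 to 21.0. Skin and heart genes lie higher, at 51.8 and 49.2, beside 49.0 for cholinergic genes of the cord.

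All 154 genes listed for the cell types of the cord were detected, and 63 of them were within the brightest 10%. Of all gene names 74.6% were detected, and of names that are not clone-like 82.3%. The 3 most prominent groups were oligodendrocytes, astrocytes and the genes shared by neurons. Of 25 oligodendrocyte genes, 17 were within the brightest 10% and the median percentile was 96.2. Beside Mbp, Mag, an adhesion protein between myelin and axon, was at 16.08, 16.70 and 16.66, and the tight junction protein Cldn11 at 14.70, 15.36 and 15.31. The remaining genes reached down to the transcription factor Myrf, at 6.11, 7.03 and 5.19. Precursors of oligodendrocytes were represented by 8 genes with a median percentile of 73.1, among them the growth factor receptor Pdgfra at 9.89, 10.10 and 10.54.

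Of 18 astrocyte genes, 13 were within the brightest 10%, and the median percentile was 98.1. The order of the 3 groups depends on the probe: with the mean over a gene's detected probes, the medians were 95.3 for astrocytes, 96.1 for neurons and 96.3 for oligodendrocytes. Apoe, which carries lipids between cells, was at 16.67, 16.88 and 17.13. Glul, which turns glutamate into glutamine, was at 16.05, 16.12 and 16.20, and the glutamate transporter Slc1a2 was at 15.47, 15.50 and 15.51. Aqp4, the water channel of astrocyte endfeet, was at 14.19, 14.40 and 14.13.

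Of 18 genes shared by most neurons, 17 were within the brightest 10%, and the exception was Gap43, a protein of growing axons, at 9.89, 9.95 and 9.71. The median percentile was 97.3. Uchl1, an abundant neuronal deubiquitinating enzyme, was at 16.90, 16.99 and 16.98, and Snap25, part of the synaptic fusion machinery, was at 16.49, 16.41 and 16.43. The heavy neurofilament subunit Nefh was at 15.96, 16.26 and 16.04. No gene of this list had an SD of 0.5 or more.

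Transmitter genes of inhibitory neurons lay high in the range. Of 12 GABA and glycine genes, 6 were within the brightest 10%, and the median percentile was 89.8. Slc32a1, which loads both transmitters into vesicles, was at 16.33, 16.15 and 16.11, the opioid precursor Penk at 15.53, 15.06 and 15.17, and the glycine transporter Slc6a5 at 12.95, 12.77 and 12.50. Excitatory genes had a median percentile of 72.0, with 2 of 12 within the brightest 10%. The 3 vesicular glutamate transporters lay far apart. Slc17a6 was at 13.83, 13.49 and 13.51, Slc17a8 at 10.32, 10.05 and 9.84, and Slc17a7 at 3.79, 4.12 and 4.89.

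Cholinergic genes were detected but dim, with none of 12 within the brightest 10% and a median percentile of 49.0. Ache, which breaks acetylcholine down and is not limited to cholinergic cells, was the highest at 12.44, 12.37 and 12.39. The choline transporter Slc5a7 was at 10.82, 11.86 and 11.33, and the filament protein Prph at 9.93, 11.23 and 10.28. The vesicular transporter Slc18a3 was at 6.02, 7.22 and 6.71, and the motor neuron factor Mnx1 at 6.22, 7.13 and 6.58. Replicate 2 was highest for 10 of the 12 genes, whereas over all detected genes each replicate was highest for 30.6% to 35.6%. Replicate 1 was lowest for 9, a count for which no share over all genes was computed.

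The remaining cell types of the cord lay in the upper middle of the range. Microglial genes (16 of 16 detected) had a median percentile of 78.6, pericyte and smooth muscle genes (10 of 10) 79.6, ependymal genes (10 of 10) 68.6 and endothelial genes (13 of 13) 65.5. Ctss, a lysosomal protease, was the brightest microglial gene, at 14.01, 14.57 and 14.36. P2ry12, the receptor by which resting microglia sense nucleotides, was at 9.81, 10.12 and 10.01. Flt1, a receptor for vascular growth factor, led the endothelial genes at 13.06, 13.14 and 13.22, while Vwf, the clotting factor made by the endothelium of larger vessels, differed between samples, at 12.59, 11.59 and 13.55. Foxj1, which drives the making of motile cilia, was at 10.73, 10.53 and 10.38.

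Of 91 genes of tissues that surround or perfuse the cord, 77 were detected, 8 were above background on 1 or 2 arrays, and 6 on none. That share, 84.6%, is near the background of 74.6% of all gene names and 82.3% of names that are not clone-like, and nothing is read from it. Blood was marked by haemoglobin, with Hbb-bt at 16.86, 16.10 and 16.75 and Hba-a1 at 15.81, 15.00 and 16.05, where near-identical globin genes can share signal. Of 16 leukocyte genes 13 were detected, 2 were within the brightest 10%, and the median percentile was 38.8. The neutrophil gene S100a9 was at 15.52, 14.81 and 14.44. Of T cell genes, Cd3e and Cd4 were detected, and Cd8a and Cd3g were above background on no array. Of 7 genes of sensory ganglion neurons, 5 were detected, the median percentile was 25.3, and the sodium channel gene Scn11a was above background on none. P2rx3, an ATP receptor of pain fibres, was the highest of them at 6.62, 6.72 and 6.65.

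Genes of other nervous tissue and of unrelated organs were mostly in the lower part of the range, although many still passed the background mark. Of 66 genes typical of forebrain, cerebellum, hypothalamus, choroid plexus, pituitary, retina and monoaminergic nuclei, 39 were detected, 18 were on no array above background, and none was within the brightest 10%. Of 51 genes of liver, testis, skin, pancreas and heart, 30 were detected and 16 were on none. Those shares, 59.1% and 58.8%, are lower than the 74.6% of all gene names and the 82.3% of names that are not clone-like. Even so, genes of tissues that were not sampled passed the mark too. All 8 heart genes were detected, with a median percentile of 49.2, and 8 of 10 skin genes, with a median of 51.8. Genes above background on no array included the photoreceptor factor Crx (0.79, 0.84 and 0.82), the cerebellar receptor subunit Gabra6 (0.89, 0.91 and 0.89) and the pituitary factor Pou1f1 (0.85, 0.89 and 0.85). The noradrenaline transporter Slc6a2 (0.94, 1.03 and 1.04), the cortical factors Fezf2 and Tbr1, the choroid plexus protein Ttr and the forebrain factor Dlx2 were on none either. The lowest value marked well above background was 2.80, 2.89 and 3.37 on the 3 arrays, so the levels of these genes are bounds only.

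Some members of those lists were bright. Sst, listed for the pancreas and also a neuropeptide of dorsal horn neurons, was at 13.87, 13.21 and 13.41. Sfn, an epithelial 14-3-3 protein listed for skin, was at 13.02, 13.22 and 13.12. Ryr2, the calcium channel of heart muscle that neurons also use, was at 10.80, 10.63 and 10.80. Hdc, which makes histamine, was the highest of the monoaminergic genes at 8.59, 8.15 and 8.36, and serotonin and noradrenaline synthesis genes were lower, with Tph2 at 4.33, 4.24 and 4.06 and Dbh above background on 2 arrays only.

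Hox genes of the middle paralogous groups were detected in every sample, and those of the last groups differed widely between samples. All 19 genes of groups 4 to 9 were detected, with a median percentile of 82.5 and 3 of them within the brightest 10%, and 7 of 8 of groups 1 to 3, with a median of 47.5. Hoxa7 was the brightest, at 13.69, 13.90 and 13.85, followed by Hoxb6 at 12.84, 12.68 and 12.82. Hoxb1 was above background on no array. Of 11 genes of groups 10 to 13, 4 were detected, 6 were above background on 1 or 2 arrays, and Hoxd12 on none.

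Replicate 1 was the highest for the 10 of those genes that were above background on any array. Over all detected genes it was highest for 35.6%. Replicate 3 was the lowest for the 7 that were above background in both replicates 1 and 2. Hoxc10 was at 10.81, 9.10 and 8.62, with its second probe at 7.77, 6.00 and 5.48. Hoxa10 was at 10.47, 8.31 and 7.76, Hoxa11 at 9.45, 7.25 and 4.89, and Hoxd10 at 9.54, 6.37 and 4.55. For these 4 the highest replicate exceeded the lowest by 4.59-fold to 32.0-fold on the log2 value scale. Hoxc12 was at 9.84 and 5.27 in replicates 1 and 2 and not well above background in replicate 3, so that replicate 1 was at least 88.5-fold higher than replicate 3, taking the lowest value marked above background on that array. The same bound was at least 17.3-fold for Hoxb13, 9.55-fold for Hoxd11, 7.82-fold for Hoxa13, 2.26-fold for Hoxc13 and 1.70-fold for Hoxd13. For Hoxb13, Hoxc13 and Hoxd13 replicate 1 was the only one above background.

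The neighbouring groups showed smaller differences of both signs. Hoxd9 was at 9.58, 8.45 and 7.66, Hoxa9 at 12.01, 11.14 and 11.01, and Hoxb8 at 12.47, 11.98 and 11.15, in each case highest in replicate 1 and lowest in replicate 3. Hoxc8, at 8.29, 9.70 and 9.13, and Hoxc5, at 4.75, 5.79 and 5.53, were lowest in replicate 1 instead. The mean over the 19 genes of groups 4 to 9 stayed within 0.12 between replicates, while that over the 4 detected genes of groups 10 to 13 spanned 3.62. Its highest and lowest replicates, 1 and 3, share a slide, and the cause of the span was not tested. Without replicate 1 that span was 1.30, and with normexp background correction and quantile normalization it was 2.67.

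The probes of the 4 detected genes of groups 10 to 13 are shown because the difference between replicates rests on them, with that of Hoxa7, a gene alike in all replicates, for comparison. Among the 11 probes of groups 10 to 13, the longest run that any of the 55 pairs shared was 12 bases. Their GC content was 35.0% to 55.0% (median of all probes, 40.0%). The probes were compared only with each other, so signal shared with other transcripts was not tested.
Hoxa7 (chr6:52165626-52165685, minus strand): gacagttggaaaagcgtctttaagagactc
Hoxc10 (chr15:102801857-102801916, plus strand): ggaaagaaagggggataatcaaacagagag
Hoxa10 (chr6:52181656-52181715, minus strand): gcaggtttgtttatacatgtggaactggtg
Hoxa11 (chr6:52192107-52192166, minus strand): tgaatgtatgcttcatacagggatggtgtt
Hoxd10 (chr2:74532280-74532339, plus strand): gcgagcgccgcctagagatcagtaagagcg

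**Figure D2:**
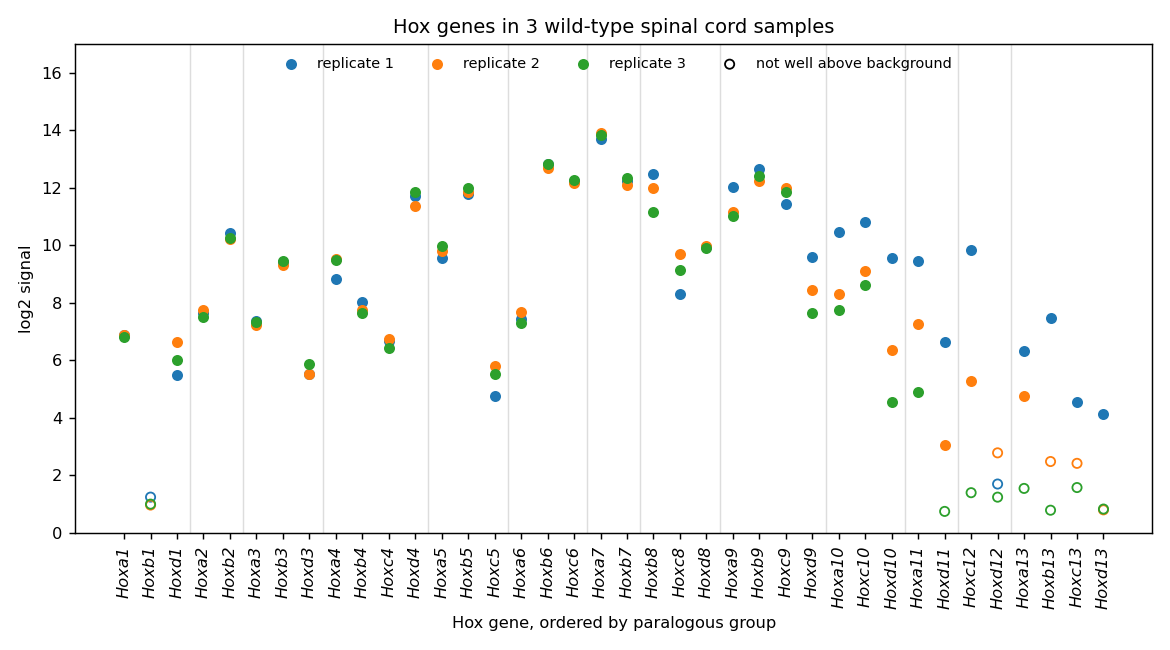
Log2 signal (vertical axis) of 38 Hox genes ordered by paralogous group (horizontal axis) in the 3 wild-type replicates, with open circles where the probe was not well above background. Replicates overlap for most genes of groups 1 to 9 and part in groups 10 to 13, where replicate 1 is highest for the 10 genes above background on any array.

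The replicates were otherwise close. Pearson's r between 2 arrays was 0.990 to 0.991 across the detected genes, which are not independent, and by r no array stood apart. The median absolute log2 difference was 0.15 between replicates 1 and 2, 0.17 between 1 and 3, and 0.15 between 2 and 3. Replicates 1 and 3 were on one slide and replicate 2 was on another, so that slide and replicate 2 cannot be told apart, and the pair on the same slide was not the closest. The median SD of a detected gene over the 3 samples was 0.14 log2 units, and 1321 genes (6.48%) had an SD of at least 0.5.

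An SD of at least 1 was found for 274 of the 20394 detected genes (1.34%). Replicate 3 was the highest for 134 of them (48.9%), replicate 2 for 78 (28.5%) and replicate 1 for 62 (22.6%). Over all detected genes those shares were 33.8%, 30.6% and 35.6%. The spread was larger for dim genes: with the detected genes in 10 equal groups by signal, the median SD was 0.26 in the dimmest and 0.08 in the brightest group, and 50 genes of the first and 5 of the second had an SD of at least 1. For 208 detected probes spotted 10 times on each array, the median SD between the repeated spots of an array was 0.06, against 0.18 between arrays in the scaled processed signal. With normexp background correction (offset 50) and quantile normalization together, the count at an SD of at least 1 was 105, all among the 274.

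**Figure D3:**
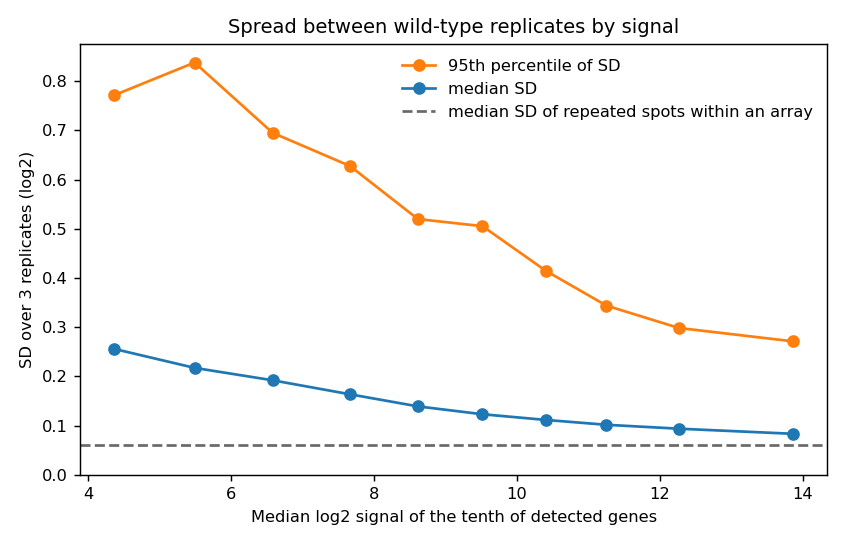
SD over the 3 wild-type replicates (vertical axis, log2 units) against the median log2 signal of 10 equal groups of detected genes (horizontal axis), with the median and the 95th percentile of SD and, dashed, the median SD of repeated spots within an array. The median SD falls from 0.26 in the dimmest group to 0.08 in the brightest.

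Genes with more than 1 probe showed that large replicate differences were mostly shared between a gene's probes. For 7448 genes with at least 2 detected probes, the 2 brightest had the same highest replicate in 51.7%. That share was 78.6% of 294 genes whose brighter probe had an SD of at least 0.5, and 89.1% of 55 with an SD of at least 1. The level, in contrast, depended on the probe. Over 7203 genes with known names, the means of a gene's detected probes ranged over a median of 2.84 log2 units. After Ptprz1, wide ranges belonged to the respiratory subunit Ndufs5 (11.66), the ribosomal protein Rps18 (11.64), the microtubule protein Map4 (11.59) and Rps12 (11.40), with Sod1 and Ubl5 at 11.36 and 10.83.

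Among the 20 known genes with the largest SD, several belonged to connective tissue, muscle or fat. Cilp, a cartilage matrix protein, was at 3.57, 5.85 and 8.96, and Prg4, the lubricant of joints, at 5.92, 7.93 and 11.17, both highest in replicate 3. Fam180a, Esm1, Col4a3, the dermal matrix protein Dpt and the mesothelial protein Msln were also highest in replicate 3, with SDs of 1.88 to 2.27. Replicate 2 was the highest for the growth factor Btc, Sprr1a, the fast myosin Myh2, Sh3rf2, the brown fat protein Ucp1 and the muscle proteins Abra and Csrp3, with SDs of 1.87 to 2.40. Hoxd10, Hoxa11 and the lymphocyte receptor Klrb1a were highest in replicate 1. The kallikrein Klk1b24, at 4.85, 9.29 and 9.47, and Tescl, at 5.37, 8.49 and 8.55, were low in replicate 1 and alike in the other two. The brightest probes of Btc and Col4a3 were above background on 2 arrays only, and the second detected probe of Btc was flat, at 4.05, 4.34 and 4.31.

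At the other end, the 10 genes of the brightest 10% with the smallest SD in the deposited table, after Rn18s, Fth1 and the probe named Ptprz1, were Btbd1, Coq2, Mff, Sucla2, H2ac10, Ndfip1 and Ywhah. In the scaled processed signal their SDs were 0.04 to 0.06.

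Genes of 4 surrounding tissues shifted together between replicates, each in its own pattern. The lists were chosen with earlier results of these data known, so the shares of all detected genes beside them serve as description only. Peripheral myelin is made by Schwann cells in the spinal roots, and its 9 listed genes were all highest in replicate 1 and all lowest in replicate 2. Over all detected genes, replicate 1 was highest for 35.6%. Prx, which helps to stabilise that myelin, was at 12.23, 8.69 and 10.24, the Schwann cell signal Dhh at 12.03, 8.56 and 10.27, and Egr2, the factor that starts peripheral myelination, at 11.04, 7.66 and 8.98. Pmp22, the brightest, was at 16.52, 14.40 and 15.09. The SD was at least 1 for 8 of the 9, against 1.34% of all detected genes, and the list means of the replicates spanned 2.87 log2 units. Without replicate 1 the span was 1.01, and between replicates 1 and 3 on the same slide the difference was 1.86.

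All 15 skeletal muscle genes were highest in replicate 2, against 30.6% of all detected genes, and 14 were lowest in replicate 3. Myh2 was at 9.30, 12.82 and 9.23, and its next 2 probes were at 9.11, 12.61 and 8.97 and at 6.44, 9.46 and 6.44. Tnni2, a troponin of fast fibres, was at 13.27, 14.49 and 12.02, and Mb, the oxygen store myoglobin, at 8.57, 11.17 and 8.27. The SD was at least 1 for 12 of the 15, against 1.34% of all detected genes. The list means spanned 2.49, of which 1.07 lay between replicates 1 and 3 on one slide, which is also the span without replicate 2; without replicate 3 it was 1.43.

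The 9 detected adipocyte genes were all highest in replicate 2 as well, against 30.6% of all detected genes. In contrast to muscle, 8 of them were lowest in replicate 1. The brown fat uncoupling protein Ucp1 was at 3.77, 7.63 and 5.20, the fatty acid carrier Fabp4 at 7.16, 10.03 and 7.83, and the hormone Adipoq at 3.60, 6.60 and 4.94. Lep, the hormone of white fat, was above background on no array. The SD was at least 1 for 5 of the 9, against 1.34% of all detected genes. The list means spanned 2.39, or 0.85 without replicate 2. With normexp background correction and quantile normalization the span was 1.47, and without replicate 1 it was 1.54.

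Of 14 detected genes of meningeal fibroblasts, 13 were highest in replicate 3, against 33.8% of all detected genes. The exception was Ogn, at 13.45, 10.69 and 12.85. Dcn, a collagen-binding proteoglycan, was at 15.01, 12.92 and 15.17, Col1a2 at 14.49, 13.52 and 15.23, and Slc6a13, a GABA transporter of the meninges, at 10.72, 10.26 and 12.47. The retinoic acid enzyme Aldh1a2 was at 10.09, 9.67 and 11.72. Replicate 2 was the lowest for 9 of the 14, and the SD was at least 1 for 10, against 1.34% of all detected genes. The list means spanned 1.84, or 0.51 without replicate 3.

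Of the probes that carry these 4 contrasts, those of Prx, Myh2, Dcn and Ucp1 are shown, 1 for each tissue.
Prx (chr7:28304333-28304392, plus strand): tgagtagccacgctgagtaccaggtagttg
Myh2 (chr11:67010952-67011011, plus strand): cgcctgtgtgattctattccatcctgttgt
Dcn (chr10:96980233-96980292, plus strand): aacaccttcagatgtgtctatgtgcgttct
Ucp1 (chr8:85821788-85821847, plus strand): ggaacgtcatcatgtttgtgtgctttgaac

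**Figure D4:**
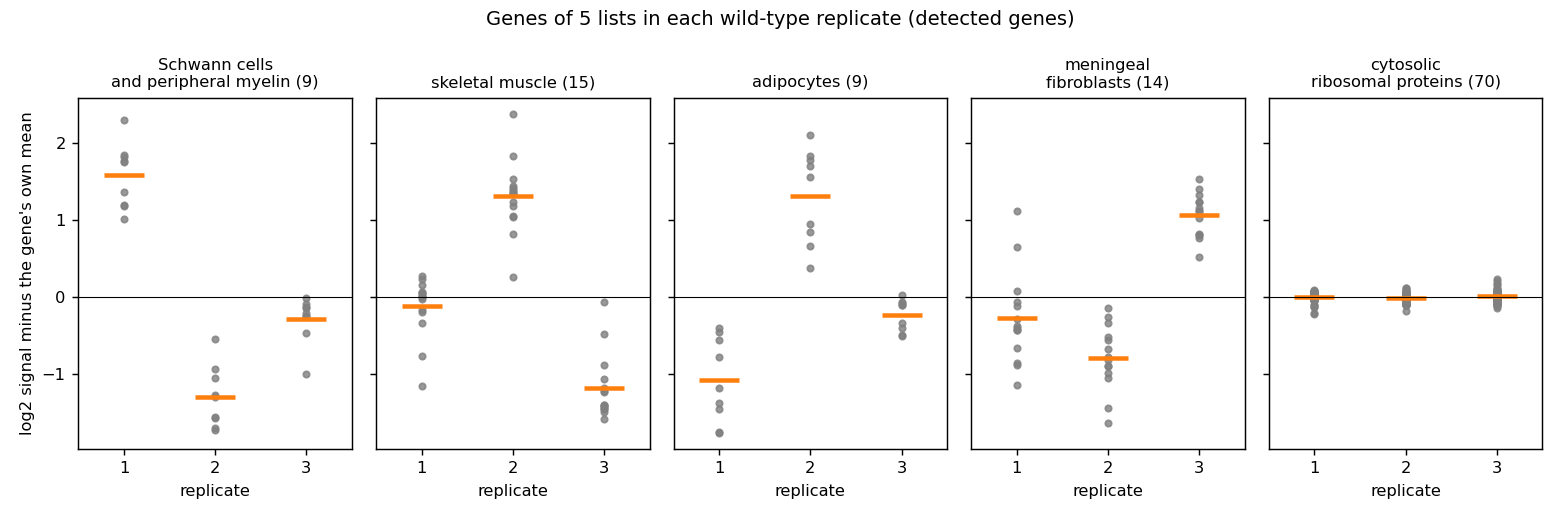
Log2 signal of each detected gene minus its own mean over the 3 wild-type replicates (vertical axis), by replicate (horizontal axis), for 4 surrounding tissues and, as a comparison, the 70 cytosolic ribosomal protein genes; grey points are genes and orange bars are list means. Peripheral myelin genes are highest in replicate 1, muscle and fat genes in replicate 2 and meningeal genes in replicate 3, while the ribosomal genes stay near 0.

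Cell types of the cord itself moved less, and some moved beside the surrounding tissues. Replicate 1, in which peripheral myelin and the last Hox groups were highest, had the lowest signal for 23 of 25 oligodendrocyte genes and for 14 of 16 microglial genes, with list means spanning 0.50 and 0.46. The oligodendrocyte span was 0.19 without replicate 1 and 0.31 without replicate 2, and the microglial mean of replicate 2 minus that of replicate 3 was -0.06. Mog, a surface protein of central myelin, was at 10.40, 11.23 and 10.77, and Cnp at 14.03, 14.63 and 14.79. Replicate 1 was also the lowest for 18 of 21 genes of cholesterol synthesis, and it was the highest for 10 of 12 GABA and glycine genes and for 9 of 10 ependymal genes. The ependymal means spanned 0.91, or 0.46 without either replicate 1 or replicate 2, with Tekt1, a filament protein of cilia, at 10.11, 9.09 and 9.53. Of 13 endothelial genes, 11 were highest in replicate 3, as were the meningeal genes. Over all detected genes, replicate 1 was highest for 35.6% and replicate 3 for 33.8%. The share for which each replicate was lowest was not computed, so counts of lowest genes here and for other lists have no background. The part of the surrounding tissues in these smaller shifts was not tested.

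Blood genes were divided between replicates. Over all detected genes, replicate 1 was highest for 35.6%, replicate 2 for 30.6% and replicate 3 for 33.8%. Of 7 detected red blood cell genes 5 were highest in replicate 1 and 2 in replicate 3. Of 13 detected leukocyte genes 8 were highest in replicate 1, 4 in replicate 2 and 1 in replicate 3. Among those highest in replicate 1 was the red cell membrane protein Slc4a1, at 9.26, 8.12 and 7.81. The neutrophil granule genes Camp, at 10.47, 9.85 and 9.21, Ngp, at 10.10, 9.56 and 8.78, and Mpo, at 9.67, 9.19 and 8.32, were highest in replicate 1 and lowest in replicate 3. Elane, of the same granules, was above background on 2 arrays only. The pan-leukocyte gene Ptprc was at 8.19, 8.41 and 8.27.

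**Figure D5:**
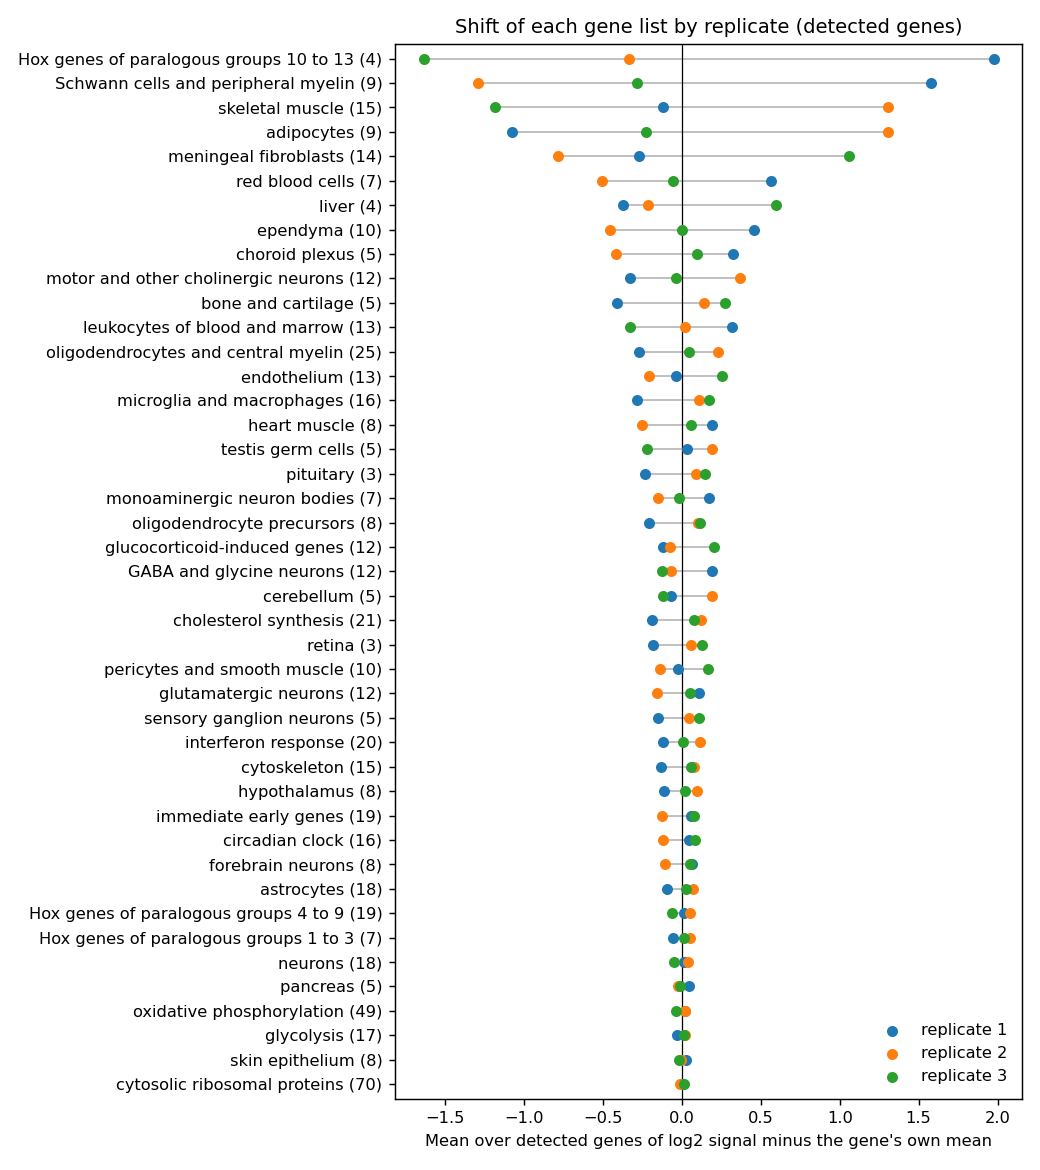
Mean over the detected genes of each list of the log2 signal minus the gene's own mean (horizontal axis), for 43 gene lists with the number of detected genes in parentheses (vertical axis), in the 3 wild-type replicates. The widest spans are 3.62 for the Hox genes of groups 10 to 13, 2.87 for peripheral myelin, 2.49 for muscle, 2.39 for fat and 1.84 for meningeal fibroblasts, and the narrowest is 0.02 for cytosolic ribosomal proteins, which is 0.06 or 0.08 in the processed signal by its scaling.

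The lists account for a small part of the variable genes. Of the 274 genes with an SD of at least 1, 222 had known names, and 43 of those belonged to any of the 43 lists. Ribosomal, oxidative phosphorylation and glycolytic genes had none with an SD of 0.5 or more, and their list means stayed within 0.06 between replicates in the deposited table. In the processed signal the ribosomal span was 0.06 with scaling to the 75th percentile and 0.08 with centring on the median. The list means of the 18 genes shared by most neurons lay within 0.09, against spans of 0.70 for cholinergic, 0.32 for GABA and glycine and 0.27 for glutamatergic genes.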

How the data were processed

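Signals are the authors' deposited log2 values, whose method is not given in the sources used here. The 3 columns have the same quantiles (median 7.22) and follow the log2 processed intensity of their own arrays at r of 0.9997 or more across probes. Per the file headers, intensity was read with Agilent Feature Extraction 10.7.3.1 on design 014868 (mm9), and the background flags come from the same deposited files. Of 41174 non-control probes, 5 whose spot was marked as an outlier on an array were left out. Repeated spots were averaged. Names came through accessions in the RefSeq table (GRCm38.p6, 27668 probes), current symbols (5589), synonyms (471) or the file (7446), and names of clones were left out of rankings.

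The members and the gene lists were chosen with earlier results of these data known. The text names the 4 markers, the 25 brightest genes, up to 6 of the brightest detected members of a list and undetected ones as examples, the 20 largest and 10 smallest SDs, and the 8 widest probe ranges. Other members are named as examples chosen after their values were seen. Some genes that this rule named are not reported here. List members not among the probe names were not analysed here. SDs are over 3 samples, and so few arrays limit their precision. The functions were tested on simulated data. Python 3.11 and limma 3.58.1 in R 4.3.3 were used.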

Additional observations from a re-analysis of the deposited data

How the results depend on the processing

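For 33 results, 290 values were computed under 12 alternatives, not all of which covered each result, and 29 moved. Some values could not move, so the share that moved does not measure robustness. The background flags were not recomputed under the scalings, and list percentiles do not depend on the detection filter. The median SD of 0.14 counted as moved only beyond a shift of 0.16. For the median probe range of 2.84 that shift was 3.15. The values are counts, percentiles, SDs and spans, which have no sign to change. With the mean over a gene's detected probes in place of its brightest one, 16 of the 25 brightest genes were the same, and median percentiles were 95.3 for astrocytes, 96.1 for neurons, 96.3 for oligodendrocytes (the reverse of their order otherwise), 81.4 for microglia and 18.9 for retina. With normexp and quantile normalization, 562 genes had an SD of at least 0.5 and 105 of at least 1, and the retina median was 20.1. With no detection filter those counts were 3919 and 1006, and the 2 brightest probes had the same highest replicate in 60.0% and 57.6% of genes. With the laxer positive-and-significant flag, 1528 genes were above background on no array. Leaving out each replicate in turn gave 286 to 360 genes with an SD of at least 1, of which 133 to 212 were among the 274. Keeping the 5 outlier-marked probes, an alternative chosen after seeing the data, moved none of these counts beyond 1.5 times. No paired analysis was possible because only 1 group was described. Dim signals limit what can be said: values below 2.80 to 3.37 have no order.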

Other observations

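Genes of several cell states were on the array, where 74.6% of all gene names and 82.3% of names that are not clone-like were detected. Of 20 immediate early genes, which neurons and other cells switch on within minutes of stimulation, 19 were detected. Fos was at 9.56, 9.81 and 9.40, Egr1 at 11.24, 11.21 and 11.27, and Arc at 11.05, 11.20 and 10.96, while Nr4a3 was above background on no array. Of the 19, 3 had an SD of at least 0.5, against 6.48% of all detected genes. The largest was that of Egr2, which is also listed for Schwann cells. All 16 clock genes were detected, with Dbp, an output gene of the clock, at 14.36, 13.93 and 14.37, Per1 at 10.57, 10.51 and 10.98, and Arntl at 9.34, 9.37 and 9.59. No clock gene had an SD of 0.5 or more.

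Of 21 interferon response genes, 20 were detected with a median percentile of 61.1, and Mx1 was above background on none. Isg15 was at 8.26, 8.56 and 7.94 and Irf7 at 5.50, 5.78 and 5.36. Of 12 glucocorticoid-induced genes, all were detected. An SD of at least 0.5 was found for 4 of them, against 6.48% of all detected genes. Replicate 3 was the highest for 7, against 33.8% of all detected genes. The metallothioneins Mt1 and Mt2 were the brightest, with Mt2 at 17.12, 17.23 and 17.22, and the chaperone partner Fkbp5 was at 8.68, 9.31 and 10.10.

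A pair of large single-probe values were left out as outlier-marked spots. One probe of Adat1, a tRNA-editing enzyme, was at 7.44, 7.81 and 15.71, while the other 2 probes of the gene were flat, with SDs of 0.02 and 0.03 around means of 8.77 and 7.03. One probe of the cyclin Ccnd2 was at 11.24, 11.34 and 14.61, against 10.78, 10.95 and 10.97 and 10.53, 10.56 and 10.59 at the other 2. In both cases the scanner software had marked the spot of replicate 3, and the deposited table kept the value.

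Probes of 19 genes with several detected probes, out of 7167, were placed by the files on more than 1 chromosome. Avp, the gene of the hypothalamic hormone vasopressin, was at 7.02 in replicate 3 and not well above background in the other replicates (2.64 and 2.53). The cartilage matrix gene Matn3 was at 4.27 and 7.15 in replicates 2 and 3 and not well above background in replicate 1, and Comp, of the same tissue, was at 6.49, 7.36 and 8.68. Of the 5 detected genes listed for bone and cartilage, 3 were highest in replicate 2 and 2 in replicate 3, with Acan, a cartilage proteoglycan, at 9.42, 9.64 and 9.32. Over all detected genes, replicate 2 was highest for 30.6% and replicate 3 for 33.8%.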
